A study of Mus musculus with 12 samples.

Results

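The troponin genes are 8 genes that encode the subunits of the calcium switch of striated muscle. They are Tnnt1, Tnnt2 and Tnnt3 for troponin T, Tnni1, Tnni2 and Tnni3 for troponin I, and Tnnc1 and Tnnc2 for troponin C. They were taken by name from 22202 protein-coding genes with a promoter on chromosomes 1 to 19 and X, and no threshold on a measured value entered that rule, although earlier results of these data were known when the family was chosen. Their chromatin was read in 12 ChIP-seq libraries (chromatin immunoprecipitation and sequencing) of C2C12, a myoblast line from the C3H mouse strain. One library was made for each of 6 histone marks in each of 2 cell states. Myoblasts were near confluence in medium with 10% serum. Myotubes were taken about 5 days after serum was withdrawn, and residual unfused cells were removed from them by a light trypsin treatment. Both states come from cells at passages 15 to 18 and carry no transgene or other treatment. With 1 library for each state and mark there is no replicate, so every comparison is between 2 libraries, its interval covers counting error only, and no p-value was computed.

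Muscle contracts when calcium binds troponin C, which releases the block that troponin I places on actin and myosin, while troponin T anchors the complex to tropomyosin on the thin filament. Each subunit has isoforms known from slow skeletal, fast skeletal or cardiac fibres, and a troponin I gene commonly lies beside a troponin T gene in vertebrate genomes. Of the marks, H3K4me3 is known from active promoters, H3K4me2 from promoters and enhancers, and H3K4me1 from enhancers and promoter flanks. H3K27ac is known from active promoters and enhancers, H3K27me3 from genes silenced by Polycomb, and H3K36me3 from transcribed gene bodies.

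In the mm9 build, 6 of the 8 genes form 3 pairs of troponin I with troponin T. Tnni1, the slow skeletal troponin I, and Tnnt2, the cardiac troponin T, span chr1:137679642-137748837 (69196 bp), with 29885 bp between them. Tnni2 and Tnnt3, both of the fast skeletal type, span chr7:149627713-149701913 (74201 bp), with 54425 bp between them. Tnni3, the cardiac troponin I, and Tnnt1, the slow skeletal troponin T, span chr7:4456172-4475831 (19660 bp), with only 1922 bp between them, and both lie on the minus strand. Tnnc1, the troponin C of slow skeletal and cardiac fibres, lies alone at chr14:32021498-32024915 on the plus strand. Tnnc2, the fast skeletal troponin C, lies alone at chr2:164602661-164605241 on the minus strand. The other pairs lie on the plus strand.

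The bases just before a transcription start site (TSS) are shown for 5 of the genes that carry the contrast described next. Of the starts shown, only that of Tnnc1 is the one around which the main counts were made. The main start of Tnni2, for example, is 149629076. Tnnc1 had the highest H3K27ac of the family in myotubes. The Tnnt2 start was found by sequence and is absent from the main annotation. Tnni2 and Tnnt3 are the fast pair, and Tnni3 is the member with the fewest H3K4me3 and H3K27ac reads. Each line gives the 250 bases before the start, 5′ to 3′ on the strand of the gene, from the NCBIM37 genome (mm9). Capitals mark every match to CANNTG, the E-box that myogenic helix-loop-helix factors bind, and to GGAATG on either strand, the core of the M-CAT element. Starts are those of RefSeq for Tnnc1, Tnnt2 and Tnni3, located by matching the RefSeq promoter sequence (GRCm38.p6) to NCBIM37, and the most upstream GENCODE M1 start for Tnni2 and Tnnt3.
Tnnc1 (chr14:32021248-32021497, plus strand): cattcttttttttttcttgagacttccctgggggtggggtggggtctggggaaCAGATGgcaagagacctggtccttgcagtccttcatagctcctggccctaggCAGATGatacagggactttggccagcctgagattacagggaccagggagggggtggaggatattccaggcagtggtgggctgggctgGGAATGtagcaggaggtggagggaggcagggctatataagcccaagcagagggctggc
Tnnt2 (chr1:137733316-137733565, plus strand): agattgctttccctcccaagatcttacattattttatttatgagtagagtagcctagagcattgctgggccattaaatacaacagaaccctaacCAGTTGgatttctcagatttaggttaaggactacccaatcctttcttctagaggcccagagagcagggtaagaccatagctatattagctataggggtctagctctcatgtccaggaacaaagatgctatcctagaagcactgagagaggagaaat
Tnni2 (chr7:149627463-149627712, plus strand): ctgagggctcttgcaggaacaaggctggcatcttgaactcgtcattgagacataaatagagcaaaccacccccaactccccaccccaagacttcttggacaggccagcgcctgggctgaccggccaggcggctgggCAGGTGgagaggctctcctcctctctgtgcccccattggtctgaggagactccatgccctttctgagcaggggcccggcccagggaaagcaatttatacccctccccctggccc
Tnnt3 (chr7:149684491-149684740, plus strand): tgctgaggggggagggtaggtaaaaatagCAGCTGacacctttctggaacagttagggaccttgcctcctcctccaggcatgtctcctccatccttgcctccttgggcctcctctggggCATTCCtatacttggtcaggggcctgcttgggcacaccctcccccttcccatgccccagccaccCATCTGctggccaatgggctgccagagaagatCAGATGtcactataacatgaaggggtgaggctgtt
Tnni3 (chr7:4474131-4474380, minus strand): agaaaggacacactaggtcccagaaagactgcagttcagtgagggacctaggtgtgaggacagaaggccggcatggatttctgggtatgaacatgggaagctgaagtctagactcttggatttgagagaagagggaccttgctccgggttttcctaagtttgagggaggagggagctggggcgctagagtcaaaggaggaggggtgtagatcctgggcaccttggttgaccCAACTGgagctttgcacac

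In the 300 bases from 250 before to 50 after the start, all 8 genes held an E-box, as did 68.2% of 22197 promoters of the same length. The starts searched were those of RefSeq, or of GENCODE M1 for Tnni2 and Tnnt3. That of Tnnt1 lies at position -1360 from the start used for the main counts. The match CAGCTG, a subset of the E-box, was present at 2 troponin genes (Tnnt3 and Tnni1) and at 15.3% of all promoters. The M-CAT core was present at 2 (Tnnt3 and Tnnc1) and at 12.9% of all promoters. TATAAA was present at 2 (Tnnt1, at position -30, and Tnni2, at position -22) and at 12.9% of all promoters. The patterns searched for the MEF2 motif and the CArG box were matched at none of the 8, against 2.85% and 1.38% of all promoters. Sites that differ from a searched pattern were not counted, so similar sites may be present. Both strands were searched, and a match is a description of letters and not of binding.

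Reads were counted 1 kb either side of 1 TSS for each gene, the annotated start with the most H3K4me3 reads in both libraries together, so H3K4me3 itself helped to choose the window. A level is given as fold, the reads in the window over the mean of the same library, with an exact 95% Poisson interval. A ratio is the myotube count over the myoblast count after 1 read is added to each and both are scaled by the total reads of their library. A gene is called higher at a ratio of at least 2 and lower at 0.5 or less, if the libraries together held at least 20 reads. The 12 libraries held between 1858771 reads (myoblast H3K27ac) and 7033100 reads (myoblast H3K36me3), and the genome mean lay between 1.45 and 5.50 reads in such a window. The width of an interval follows the reads in its window.

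The labels were read against marker genes. Of 6 genes known from myotubes, of which Acta1 is also a thin filament gene, 5 (Myog, Mef2c, Ckm, Myh3 and Acta1) were called higher in both H3K4me3 and H3K27ac, and Chrna1 was called in neither. All 5 cycling-cell genes (Mki67, Cdk1, Ccna2, Ccnb1 and Top2a) were called lower in both marks. Their H3K4me3 ratios were 0.227 to 0.426 and their H3K27ac ratios 0.0576 to 0.180. In H3K27ac they had 5 to 15 myotube reads and reached the minimum through the myoblast library. Over all promoters tested, 3.44% were called higher and 7.74% lower in H3K4me3, and 5.21% higher and 41.5% lower in H3K27ac. The 4 genes of the myogenic lineage (Myod1, Myf5, Des and Cdh15) carried H3K4me3 in both states, with 34 to 72 reads in myoblasts and 30 to 102 in myotubes. For other cell types, 5 defining genes of liver, endothelium, fat, neurons and heart (Alb, Cdh5, Adipoq, Neurod1 and Nkx2-5) had 1 to 6 H3K4me3 reads each, 12 in sum in myoblasts and 13 in myotubes. A larger number of cells with a mark and more of the mark in each cell cannot be told apart in such bulk chromatin. The part that the loss of cycling cells has in the troponin values was not tested.

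H3K4me3 at the troponin starts was low in myoblasts, with 0 to 11 reads, and high in myotubes at most members. The ratio passed 2 at 7 of the 8 genes, while 3.44% of the 11360 promoters tested were called higher and 7.74% lower. Over all 8 genes the median ratio was 20.7, beside 0.866 over all promoters tested. Tnni3 had too few reads to be called. Each called gene had under 20 reads in myoblasts and reached the minimum through the myotube library, so these counts describe the members and carry no test.

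Among the troponin T genes, Tnnt1 rose from 11 H3K4me3 reads in myoblasts (5.07-fold, 95% interval 2.53 to 9.08) to 135 in myotubes (52.4-fold, 43.9 to 62.0), a ratio of 9.53 (5.59 to 21.2). Tnnt3 rose from 4 reads (1.84-fold) to 135 (52.4-fold), a ratio of 22.9 (10.8 to 106). At the only annotated GENCODE start of Tnnt2 (137737452) the counts were 3 and 18, a ratio of 3.995 (1.47 to 26.7). That window misses the signal, which lies upstream of it.

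The RefSeq start of Tnnt2 at 137733566, at position -3886 from the GENCODE start, held 6 H3K4me3 reads in myoblasts (2.77-fold) and 233 in myotubes (90.4-fold). The ratio there was 28.1 (14.8 to 89.9). Another RefSeq start at 137732911, at position -4541, held 1 and 163 reads. At the first of these starts H3K4me2 went from 16 to 196 reads and H3K27ac from 5 to 226, with ratios of 10.46 and 14.9. At that start the myotube H3K4me3 of this cardiac gene lay within the range of the skeletal members, 30.3-fold to 102-fold. The start was added after the profiles had been seen.

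Among the troponin I genes, Tnni1 rose from 7 H3K4me3 reads (3.23-fold, 1.30 to 6.65) to 264 (102-fold, 90.4 to 116), a ratio of 27.9 (15.2 to 79.7). Tnni2 rose from 1 read to 78 (30.3-fold, 23.9 to 37.8). Its ratio with the added read was 33.2, and without it 65.6 (11.4 to 2624), an interval that 1 myoblast read leaves wide. The start chosen for Tnni2 (149629076) lies inside the gene, and at its most upstream start the counts were 1 and 54. Tnni3 had 0 reads in myoblasts, with an upper 95% limit of 1.70-fold, and 3 in myotubes (1.16-fold, 0.240 to 3.40). It was the member whose myotube interval held the genome mean.

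Both troponin C genes rose. Tnnc1 went from 11 reads (5.07-fold) to 264 (102-fold, 90.4 to 116), a ratio of 18.6 (11.1 to 40.9). Tnnc2 went from 3 reads (1.38-fold) to 149 (57.8-fold, 48.9 to 67.9), a ratio of 31.5 (14.0 to 205). The window of Tnnc1 overlaps that of Nisch, a gene that starts 1611 bp away in the opposite direction, by 389 bp. In myoblasts the highest H3K4me3 window within 5 kb of Tnnc1 lay at -2225 bp (28 reads, 103-fold), on the Nisch side. Those of H3K4me2 (-1525 bp) and H3K27ac (-1825 bp) lay there too. Within 500 bp of the Tnnc1 start, clear of the Nisch window, myoblast H3K4me3 was 2.77-fold and the H3K4me3 ratio was 32.6.

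In order of myotube H3K4me3, Tnni1 and Tnnc1 were equal at 102-fold, above Tnnc2 and then Tnnt1 and Tnnt3, whose intervals overlap that of Tnnc2. Tnni2 lay below them, followed by Tnnt2 at its GENCODE start and Tnni3, with no overlap between these steps. Tnni1 and Tnnc1 stood at the 99.9th percentile of all promoters in myotubes, and in myoblasts they stood at the 47.2nd and 50.1st. The slow members are Tnnt1, Tnni1 and Tnnc1, and the fast members are Tnnt3, Tnni2 and Tnnc2. Of these, the slow Tnni1 and Tnnc1 stood highest and the fast Tnni2 lowest. Tnnt1 equalled Tnnt3, and its interval overlapped that of Tnnc2.

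The position of the highest H3K4me3 window of 250 bp within 5 kb of the start used differed among the members in myotubes. It lay after the start at Tnnt3 (275 bp, 140-fold), Tnni1 (175 bp, 168-fold), Tnnc1 (325 bp, 245-fold) and Tnnc2 (975 bp, 133-fold). It lay before the start at Tnnt1 (-625 bp, 99.3-fold), Tnni2 (-875 bp, 49.7-fold) and Tnnt2 (-4175 bp, 137-fold). For Tnnt1, Tnni2 and Tnnt2 this places the signal nearer to a more upstream start than to the start used. At Tnni3 the highest window held 2 reads.

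**Figure D1:**
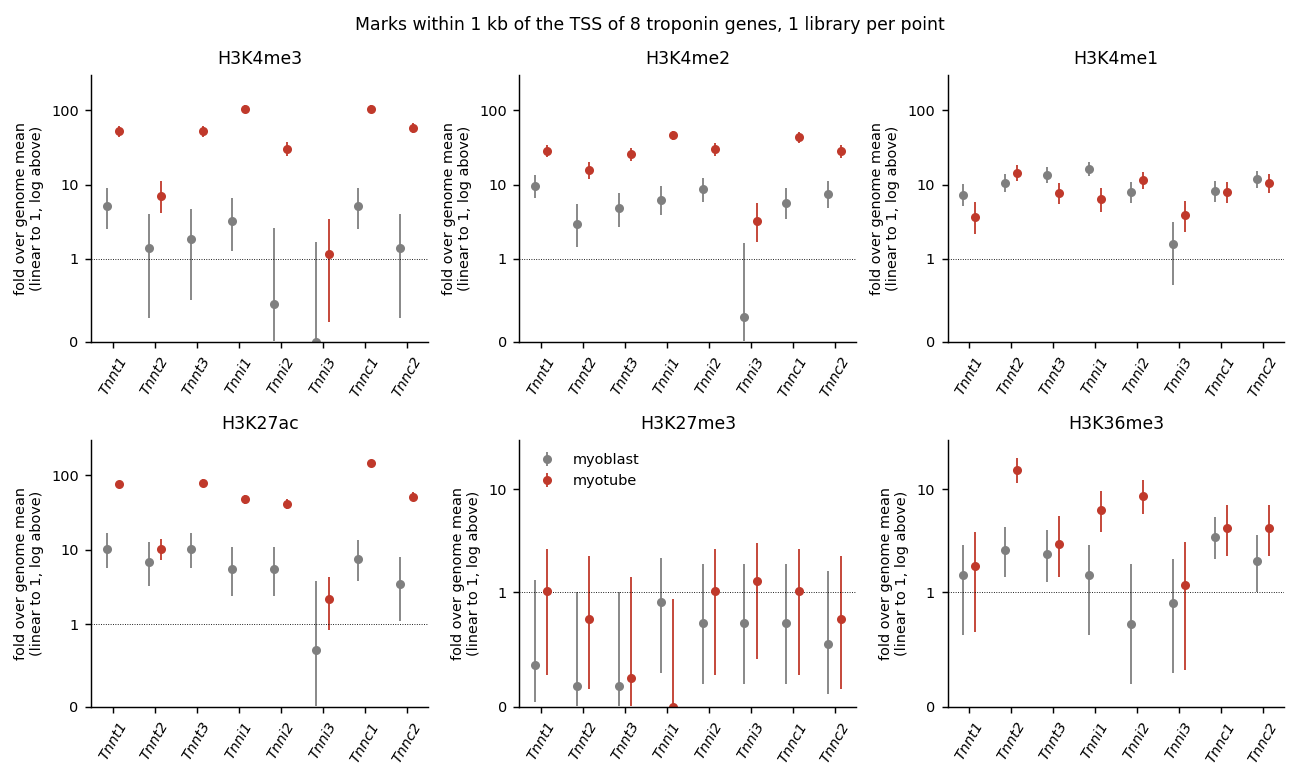
Fold over the genome mean within 1 kb of the TSS for 8 troponin genes and 6 marks, linear up to 1 and logarithmic above, with myoblasts in grey, myotubes in red and exact 95% Poisson intervals as bars. H3K4me3, H3K4me2 and H3K27ac are higher in myotubes at most genes, Tnni3 stays near 1 for H3K4me3, H3K4me1 is already high in myoblasts at 7 genes, and H3K27me3 is at or below 1.28-fold at every gene.

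H3K27ac was called higher at 6 of the 8 genes, all of which are among the 7 called in H3K4me3, against 5.21% higher and 41.5% lower among 10733 promoters tested. The median over the 8 genes was 7.04, beside 0.570 over the promoters tested. All ratios of this mark shift together with the scaling, and they move by a factor of 1.79 when libraries were scaled to promoters with an H3K4me3 peak in both states. As with H3K4me3, the called genes had under 20 reads in myoblasts (5 to 15) and reached the minimum through the myotube library, so the count carries no test. Some H3K27ac was present in myoblasts, at 3.44-fold (Tnnc2) to 10.3-fold (Tnnt1 and Tnnt3) at every gene but Tnni3. Each of those intervals lay above the genome mean, and the median myoblast promoter stood at 3.44-fold. Tnnc1 went from 11 reads in myoblasts (7.57-fold, 3.78 to 13.5) to 541 in myotubes (146-fold, 134 to 159). Its ratio of 17.8 (10.7 to 39.0) was the highest of the family, and its myotube level was at the 99.9th percentile of all promoters.

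Tnnc2 went from 5 to 192 H3K27ac reads, a ratio of 12.7 (6.36 to 47.0). Tnni1 went from 8 to 176 reads and Tnni2 from 8 to 154, with ratios of 7.74 and 6.77. Tnnt1 went from 15 to 280 reads and Tnnt3 from 15 to 291, with ratios of 6.91 and 7.18. The intervals of these 4 ratios overlap. Tnnt1 and Tnnt3, at 75.8-fold and 78.8-fold, were next to Tnnc1 in level.

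Tnnt2 had 10 and 38 H3K27ac reads at its GENCODE start, a ratio of 1.39 (0.731 to 3.36), and so was not called there. Tnni3 had 1 and 8, too few to be called. At its most upstream start Tnni2 had more H3K27ac than in the main window, 17 reads in myoblasts and 270 in myotubes, with a ratio of 5.92. The most upstream start of Tnni1 (137679642), at -16.768 kb from the start used, went the other way, from 39 reads to 30, a ratio of 0.305.

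H3K4me2 was called higher at 7 of the 8 genes, while 2.34% of 13227 promoters were called higher and 36.3% lower. The median over the 8 genes was 4.97, beside 0.593 over the promoters tested. The ratios of the called genes ran from 2.90 at Tnnt1 (32 reads in myoblasts, 105 in myotubes) to 7.27 at Tnnc1 (19 and 160). Tnni1 went from 21 to 170 reads, Tnnt3 from 16 to 95, Tnni2 from 29 to 110, Tnnc2 from 25 to 104 and Tnnt2 from 10 to 58. Tnni3 had 1 and 12 reads and was not called. Myoblasts held H3K4me2 at 2.98 to 9.53-fold at the 7 called genes. Each of those intervals lay above the genome mean, but all 7 levels were below the median promoter, at 12.8-fold. Tnnt2, Tnnt3 and Tnnc1 had under 20 myoblast reads and reached the minimum through the myotube library.

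H3K4me1 gave another picture, because it already stood high among promoters before differentiation. In myoblasts H3K4me2 and H3K27ac were above the genome mean at every gene but Tnni3, though not high among promoters. In myoblasts H3K4me1 at 7 of the 8 starts used lay at 7.31-fold (Tnnt1) to 16.2-fold (Tnni1). This is between the 89.7th and 98.9th percentile of all promoters, and each of the 7 overlapped a deposited H3K4me1 peak. Tnni3 was the exception, with 8 reads (1.58-fold, 0.682 to 3.11). For scale, the median myoblast promoter was at 1.97-fold and the median promoter with an H3K4me3 peak at 3.16-fold.

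Between the states 1 troponin gene was called lower in H3K4me1 and 1 higher, against 18.7% lower and 8.81% higher among 11777 promoters. These shares do not set the family apart from other promoters. Over the 8 genes the median ratio was 0.932, beside 0.871 over the promoters tested. Tnni1 went from 82 reads in myoblasts to 31 in myotubes, a ratio of 0.398 (0.2495 to 0.597). Tnnt1 (37 and 18 reads) and Tnnt3 (69 and 38) had ratios of 0.516 and 0.575, short of the call, with intervals below 1. Tnni3 was called higher from 8 and 19 reads, a ratio of 2.29 (1.03 to 6.48), which became 0.750 when all libraries were thinned to the smallest. The call of Tnni1 was lost at its most upstream start and at its RefSeq start, where the ratio was 0.556 (137696088). The other 4 ratios lay between 0.880 and 1.44, with intervals that hold 1. Tnnt2 is among them at its GENCODE start. At its RefSeq starts the ratio was 1.06 (33 and 34 reads, 137733566) and 2.48 (24 and 59 reads, 137732911).

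The shape of H3K4me1 around the starts is described without a test. At Tnni1 the mark went from 15.0-fold to 6.93-fold within 500 bp of the start, while the flanks 1 to 3 kb away held 4.84-fold in myoblasts and 6.93-fold in myotubes. At Tnnt3 the centre went from 15.8 to 7.75-fold and the flanks from 5.13 to 10.3-fold. At Tnnt1 the centre went from 10.3 to 5.30-fold and the flanks from 3.46 to 4.28-fold. So in myoblasts the mark was centred on these 3 starts, and in myotubes the centre of Tnni1 and Tnnt3 did not stand above its flanks. At Tnnc1 the centre held 4.74 and 5.30-fold while the flanks held 3.06 and 6.02-fold. At the GENCODE start of Tnnt2 the centre held 12.6 and 15.9-fold and the flanks 9.28 and 15.7-fold. Tnni2 held 5.92 and 8.97-fold at its centre and 6.62 and 10.7-fold in its flanks. Tnni3 went the other way, with a centre of 1.18 and 4.49-fold and flanks of 0.494 and 1.12-fold from few reads. Tnnc2 held 9.48-fold and 9.79-fold at its centre and 11.7-fold and 10.3-fold in its flanks, with little difference between the states.

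**Figure D2:**
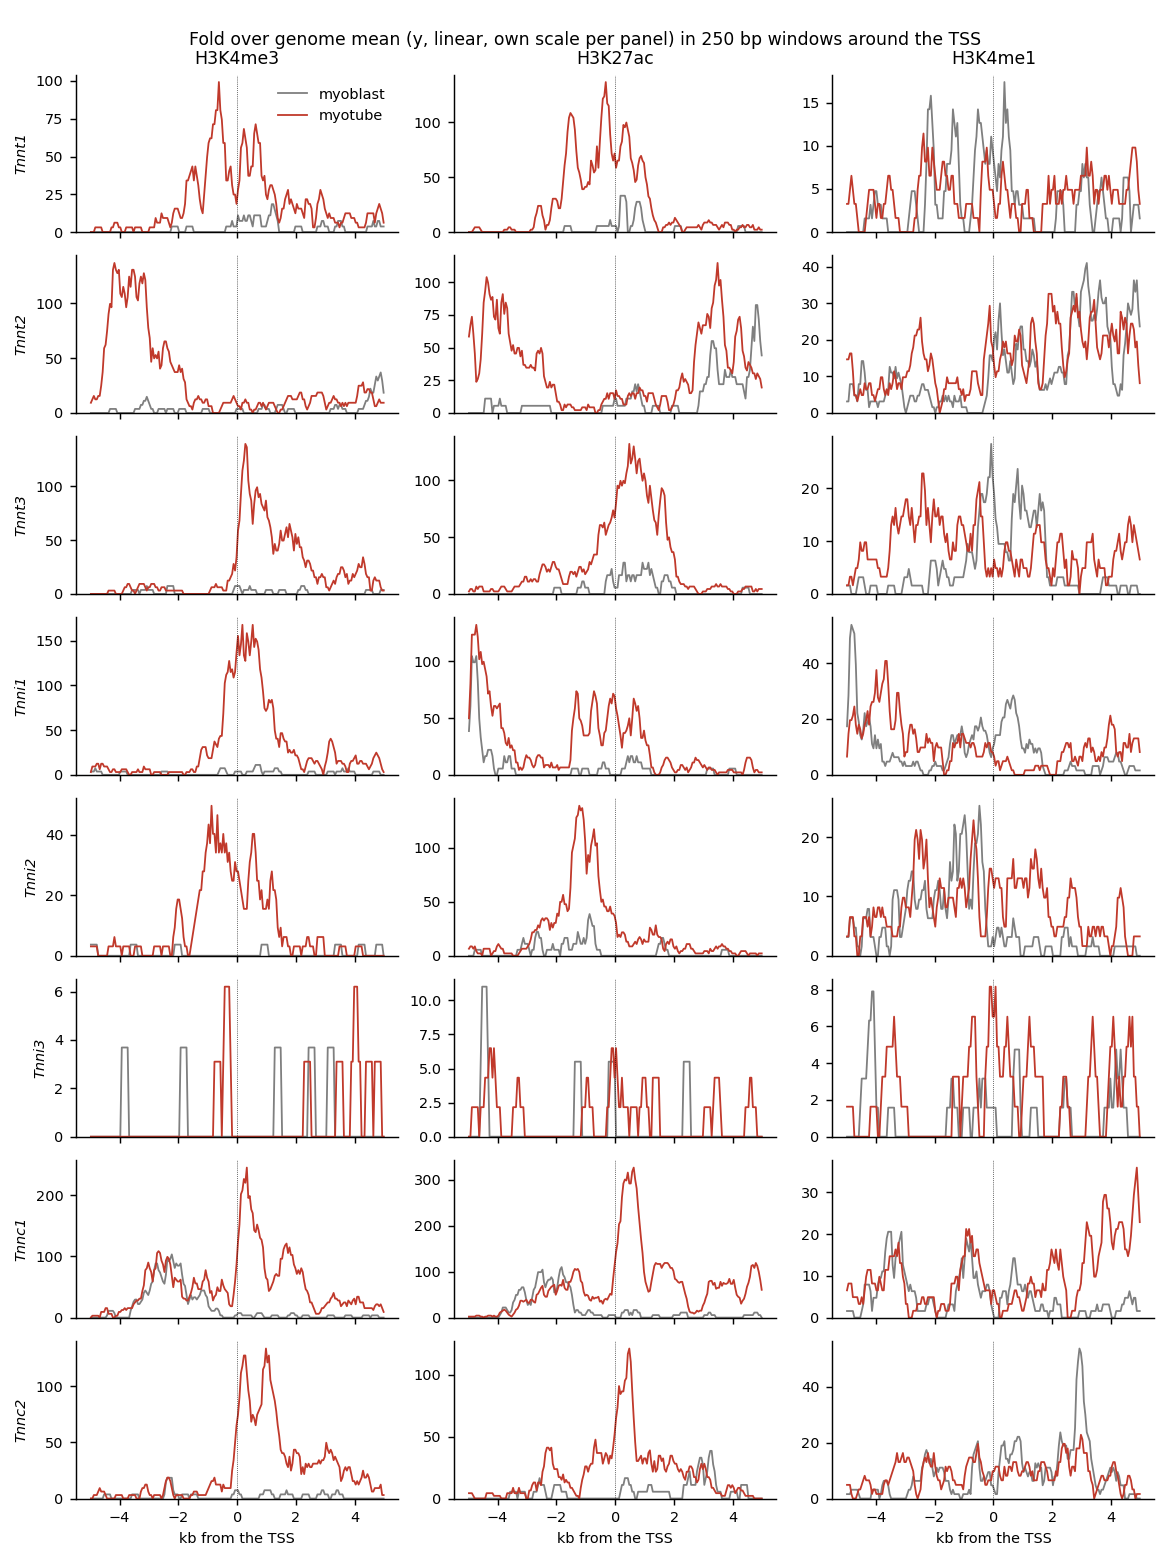
Fold over the genome mean in 250 bp windows from 5 kb before to 5 kb after the TSS of each troponin gene (rows) for H3K4me3, H3K27ac and H3K4me1 (columns), with myoblasts in grey and myotubes in red and a linear scale of its own for each panel. Tall red H3K4me3 and H3K27ac peaks stand within 1 kb of most starts, the Tnnt2 H3K4me3 peak is highest at -4175 bp, and grey H3K4me1 already stands at most starts.

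H3K27me3 was low at every troponin start in both states, with 1 to 5 reads in myoblasts and 0 to 5 in myotubes. No member reached 20 reads, so none could be called, while of 3421 promoters tested 2.37% were called higher and 20.5% lower. The highest level was 1.28-fold (0.414 to 2.98) at Tnni3 in myotubes, and Tnni1 in myotubes had 0 reads, with an upper 95% limit of 0.941-fold. At this depth H3K27me3 over the genome mean was not detectable at the start of any troponin gene in myoblasts. The counting intervals of all 8 myoblast levels reached no higher than 2.13-fold.

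Over gene bodies, from the start used to the end of the gene, 5 of the 8 members were tested in H3K27me3. Tnni2, Tnnc1 and Tnnc2 had under 20 reads. Tnnt2 alone was called higher, from 28 reads (0.896-fold) to 50 (2.24-fold), a ratio of 2.46 (1.54 to 4.12). Of 16258 genes tested, 8.83% were called higher and 1.4% lower. Tnnc1 had 0 H3K27me3 reads in its 3418 bp body in myoblasts and 16 in myotubes (2.39-fold, 1.36 to 3.88), and the lower end of the 95% interval of the ratio was 5.40. Its total was under 20 reads, and this gene was singled out after its values were seen. The same body held the highest H3K27ac of the family, 766 reads in myotubes (121-fold).

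H3K36me3 over the gene body was called higher at 7 of the 8 genes, against 7.67% higher and 6.58% lower among 15836 gene bodies tested. The median ratio over the 8 genes was 5.10, beside 1.02 over the bodies tested. Tnnt3 went from 72 reads in myoblasts (1.53-fold) to 317 in myotubes (11.0-fold), a ratio of 7.10 (5.54 to 9.41). Tnni1 went from 54 reads to 193 and Tnnt2 from 139 to 381, with ratios of 5.75 (4.29 to 8.03) and 4.45 (3.67 to 5.47). Tnnt1 went from 64 reads to 122, a ratio of 3.09 (2.28 to 4.28).

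The short genes Tnni2 and Tnnc2 had large H3K36me3 ratios from few reads. Tnni2 went from 3 to 30 reads, a ratio of 12.6 (5.07 to 83.5), and Tnnc2 from 18 to 81, a ratio of 7.04 (4.36 to 13.0). Both had under 20 reads in myoblasts and reached the minimum through the myotube library. Tnnc1 was already at 7.77-fold in myoblasts (73 reads), the highest myoblast level of the family, and rose to 17.0-fold (98 reads), a ratio of 2.18 (1.6005 to 3.01). Tnni3 had 12 and 10 reads, a ratio of 1.38 (0.526 to 3.43), and was not called. Other genes share bases with some of these bodies, and the reads carry no strand. Ube2c overlaps 64.4% of Tnnc2, Gm14492 overlaps 46.2% of Tnnt3, and 6030429G01Rik overlaps 21.9% of Tnni3, so the H3K36me3 reads of these genes cannot be told apart from those of their neighbours.

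Within 1 kb of the start 6 of the 8 genes were tested in H3K36me3 and 4 were called higher. Among 2283 promoters tested, 9.24% were called higher and 12.6% lower. All 4 called genes had under 20 reads in myoblasts and reached the minimum with the myotube reads, so the count carries no test. The called genes were Tnnt2 (14 and 52 reads), Tnni1 (8 and 21), Tnni2 (4 and 29) and Tnnc2 (11 and 14, with an interval from 0.875 to 5.05 that holds 1). RefSeq or GENCODE place other starts of Tnnt2 and Tnni2 upstream of the starts used. This count fell to 1 with windows of 500 bp, a minimum of 40 reads or thinned libraries, and to 2 at the most upstream start. The median over the 8 genes was 1.70, beside 0.978 over the promoters tested.

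**Figure D3:**
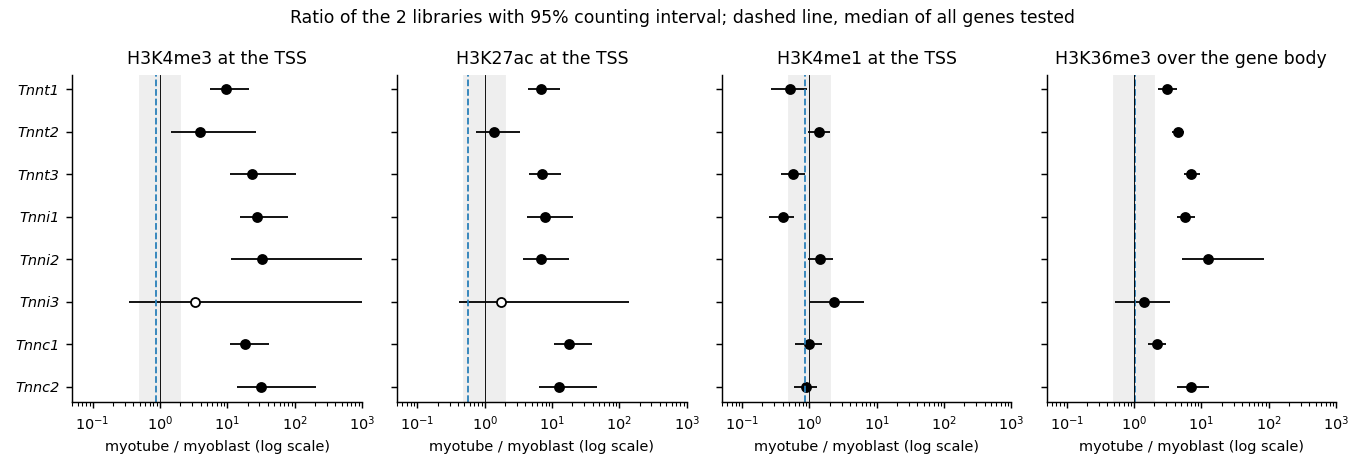
Ratio of the myotube to the myoblast library on a log scale for the 8 troponin genes, with 95% counting intervals as lines, open circles where the libraries together held under 20 reads, a grey band from 0.5 to 2 and a dashed line at the median of all genes tested. The 7 called H3K4me3 ratios and 7 called H3K36me3 body ratios lie right of the band, H3K4me1 lies on both sides of 1, and the interval of Tnni3 reaches below 1 in the H3K4me3, H3K27ac and H3K36me3 panels.

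Among bodies counted from the start used, that of the cardiac gene Tnnt2 stood apart in myoblasts. It held 603 H3K4me1 reads there (20.9-fold, 19.3 to 22.7, the 99.7th percentile of all gene bodies) and 156 H3K27ac reads (18.9-fold, 16.0 to 22.1). In myotubes the body held 451 and 404 reads, ratios of 0.773 (0.682 to 0.874) and 1.01 (0.845 to 1.23). Tnnc2 was the next member in myoblast body H3K4me1, at 13.0-fold, and Tnnc1, Tnnt1, Tnnt3, Tnni1, Tnni2 and Tnni3 lay between 0.968 and 3.61-fold. The Tnni1 body leaves out the annotated part of the gene before the start used. There the region chr1:137688623-137693433 held 222 H3K4me1 reads (18.2-fold) and 134 H3K27ac reads (38.3-fold) in myoblasts. Such levels inside an annotated gene were therefore not particular to Tnnt2.

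Regions of H3K27ac or H3K4me1 peaks were then followed across each locus and 10 kb beyond it. Every such region merges the deposited myotube H3K27ac peaks with the H3K4me1 peaks of both states, and their values are described without a call. Around the RefSeq starts of Tnnt2, the region chr1:137730021-137735478 went from 13 to 405 H3K27ac reads (3.28 to 40.2-fold), a ratio of 11.4 (7.09 to 23.2). Its H3K4me1 also went up, from 80 to 204 reads. In the same locus H3K27ac was lower in myotubes at the 3′ end of Tnnt2 (chr1:137746685-137750514, from 32.3 to 7.77-fold) and beyond it (chr1:137755647-137763186, from 50.01 to 20.2-fold).

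Upstream of the main Tnni1 start, at chr1:137688623-137693433, H3K27ac was high in both states, 38.3-fold in myoblasts and 42.5-fold in myotubes, with a ratio of 1.10 (0.909 to 1.36). This region lies inside the annotated gene, centred at -5382 bp from the start used. A region farther upstream (chr1:137672435-137676417) went from 4.49 to 28.0-fold. One at the most upstream Tnni1 start (chr1:137679159-137680227) went from 47.6 to 13.2-fold, a ratio of 0.279 (0.161 to 0.469). So within 1 locus regions with H3K27ac ratios above, near and below 1 lay side by side when libraries were scaled by total reads. Scaling to promoters with an H3K4me3 peak in both states moves all these ratios up by a factor of 1.79.

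**Figure D4:**
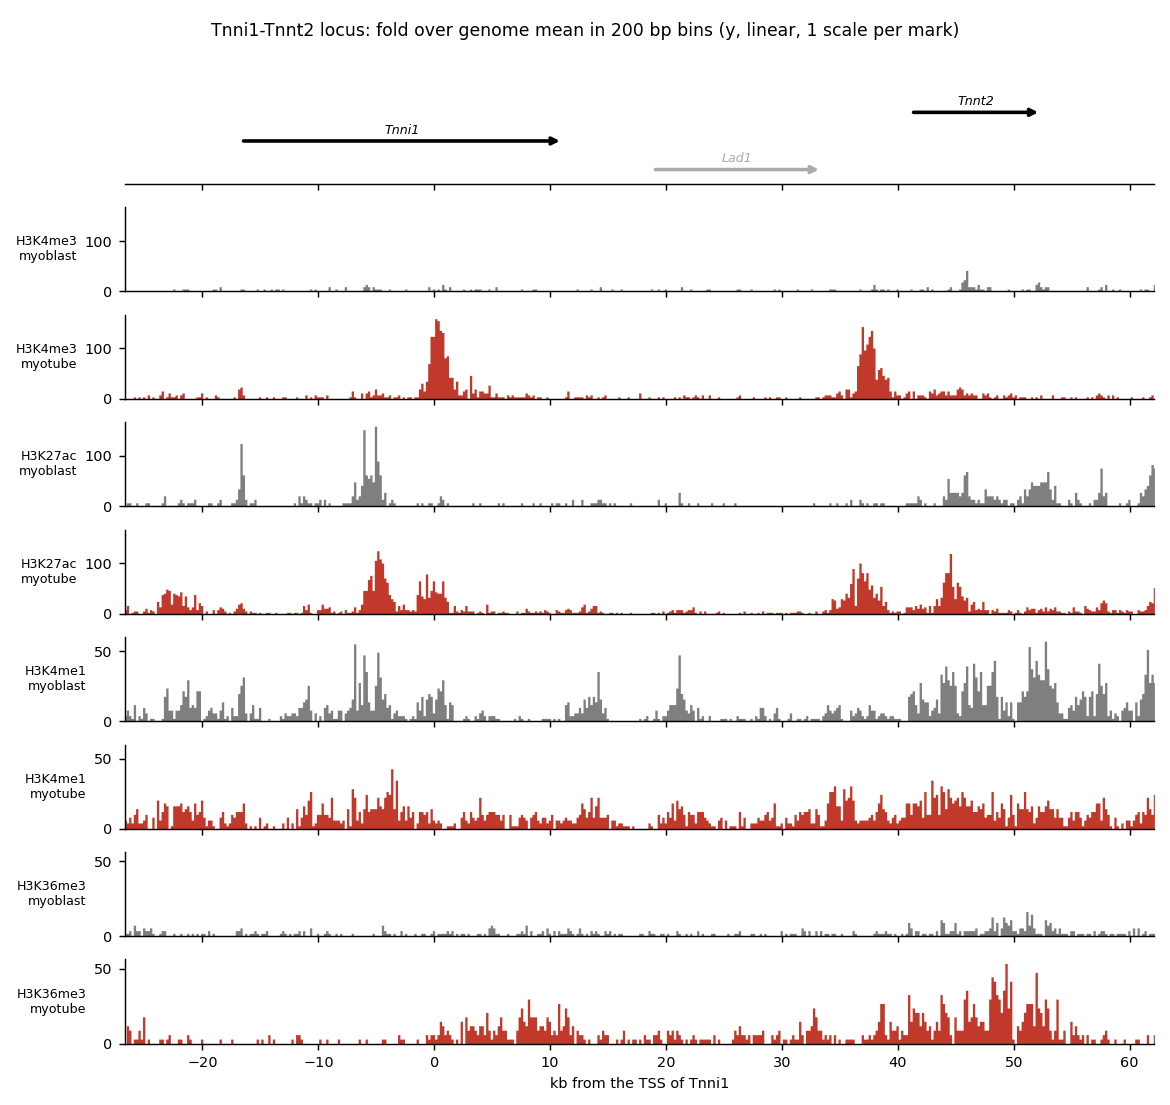
Fold over the genome mean in 200 bp bins along the Tnni1-Tnnt2 locus, by distance in kb from the Tnni1 start used, with a linear scale shared by myoblasts (grey) and myotubes (red) for each mark and arrows for genes. Red H3K4me3 stands at the Tnni1 start and upstream of the annotated Tnnt2 gene, while grey H3K27ac stands upstream of the Tnni1 start and at the end of Tnnt2.

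In the fast locus the region over Tnni2 (chr7:149626024-149629652) went from 22 to 347 H3K27ac reads and the region over the Tnnt3 start (chr7:149681429-149687252) from 28 to 500. The ratios were 5.95 (4.03 to 10.0) and 6.80 (4.80 to 10.7). Inside Lsp1, which lies between the 2 genes, and 19458 bp after the Tnni2 start used, chr7:149646734-149650333 was already at 25.2-fold in myoblasts and reached 63.5-fold, a ratio of 2.48 (1.94 to 3.31). A broader region in Lsp1 (chr7:149655523-149667834) held 30.8-fold and 26.7-fold, a ratio of 0.863 (0.749 to 1.001). Around Tnnt1, chr7:4464766-4468502 went from 16 to 426 H3K27ac reads, a ratio of 9.88 (6.37 to 18.5). In that locus no region of these peaks lay within 1 kb of a Tnni3 start, although the Tnni3 and Tnnt1 starts are 8179 bp apart.

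**Figure D5:**
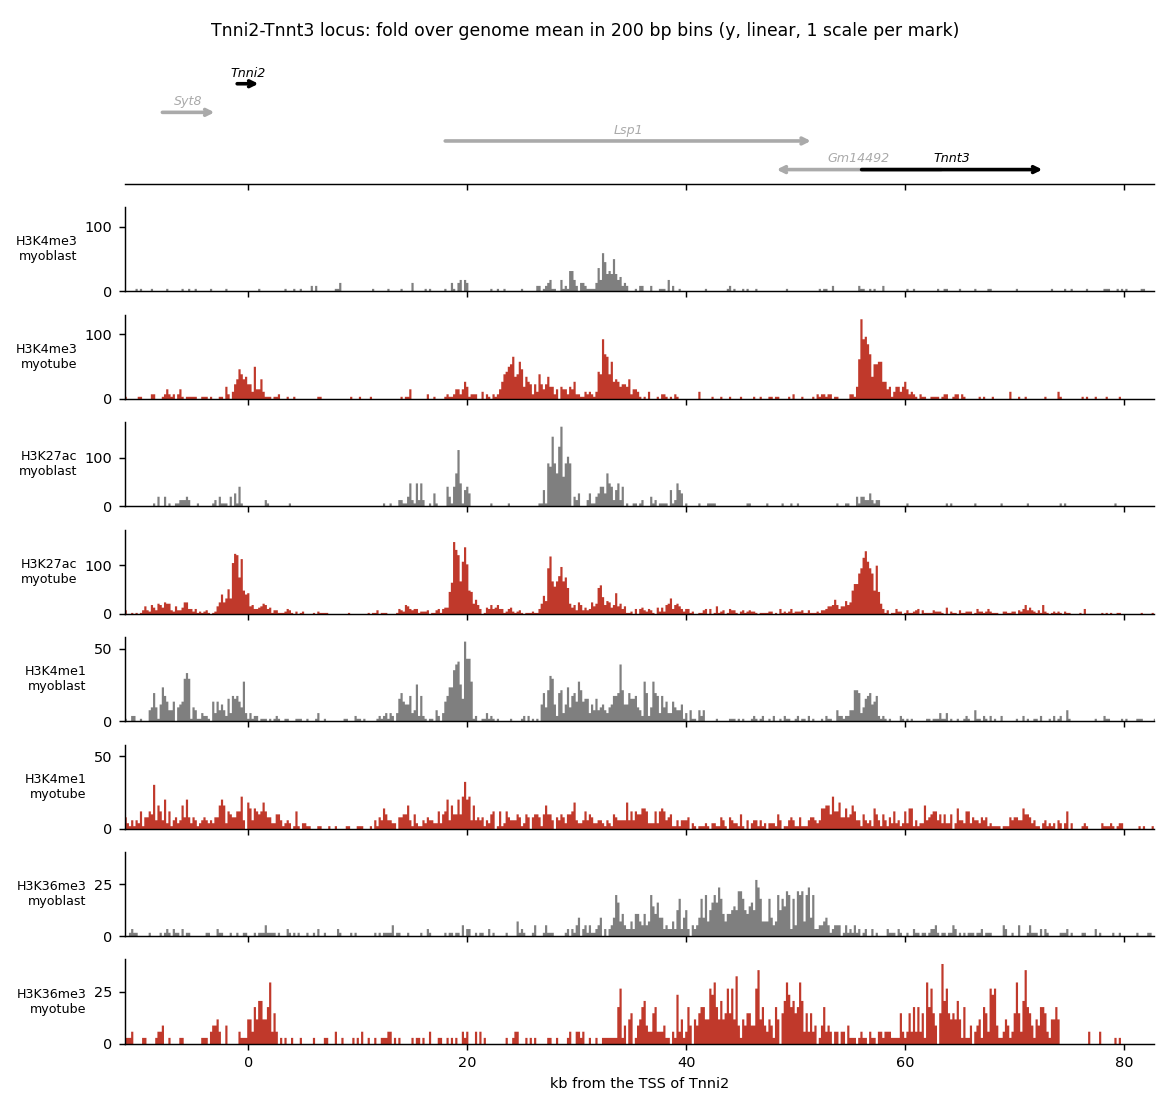
Fold over the genome mean in 200 bp bins along the Tnni2-Tnnt3 locus, by distance in kb from the Tnni2 start used, with a linear scale shared by myoblasts (grey) and myotubes (red) for each mark and arrows for genes. Red H3K4me3 and H3K36me3 stand over Tnni2 and Tnnt3, and H3K36me3 over the end of Lsp1 is present in both states.

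Beyond Tnnc1, the region chr14:32024218-32028676, centred 4949 bp after the start, went from 8 to 449 H3K27ac reads (2.47 to 54.5-fold), a ratio of 19.7 (11.1 to 51.5). Its H3K4me1 went from 34 to 184 reads. Around Tnnc2, chr2:164601725-164606473 went from 27 to 308 H3K27ac reads, a ratio of 4.34 (3.02 to 6.92).

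Protein-coding genes between or beside the pairs were read in the same way. None of the 10 (Syt8, Lsp1, Gm14492, Mrpl23, Phlda3, Lad1, Pkp1, Ppp1r12c, 6030429G01Rik and Syt5) was called higher in H3K4me3 or H3K27ac, although Syt8, Gm14492, Lad1 and Syt5 had too few H3K4me3 reads to be called, and Gm14492, Lad1, 6030429G01Rik and Syt5 too few H3K27ac reads. Among the genes that could not be called, Syt8 had 2 and 14 H3K4me3 reads, a ratio of 4.21 (1.35 to 53.4), and Gm14492 had 3 and 10, a ratio of 2.31 (0.722 to 15.9). Lsp1 had 28 and 36 H3K4me3 reads, a ratio of 1.07 (0.642 to 1.84). Pkp1 and Ppp1r12c were called lower in H3K27ac, with ratios of 0.277 and 0.462, beside 41.5% of all promoters tested. Only 3.44% of promoters tested were called higher in H3K4me3 and 5.21% in H3K27ac. The lack of higher calls and the lower calls in H3K27ac therefore do not set these neighbours apart from other promoters. Gm14492, which starts inside Tnnt3, was called higher in H3K36me3 (13 and 55 reads), H3K4me2 (5 and 24) and H3K4me1 (11 and 33). Other neighbours were called lower in H3K4me2, with ratios of 0.337 at Mrpl23, 0.355 at Lad1 and 0.381 at Pkp1. So were Ppp1r12c (0.387), Lsp1 (0.432) and 6030429G01Rik (0.481), and the last was also called lower in H3K4me1 (0.251). Over all promoters tested, 36.3% were called lower and 2.34% higher in H3K4me2, and 18.7% lower and 8.81% higher in H3K4me1. Lad1, between Tnni1 and Tnnt2, was called higher in H3K36me3 from 8 and 13 reads, beside 9.24% of all promoters tested.

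By the deposited MACS peak lists, 2 of the 8 troponin starts (Tnnt1 and Tnnc1) overlapped an H3K4me3 peak in myoblasts and 6 did in myotubes, all but Tnnt2 and Tnni3. Neither myoblast peak covered the start itself, and the window of Tnnc1 shares bases with that of Nisch. Over all promoters the shares with an H3K4me3 peak were 48.8% and 48.9%. For H3K4me2 the troponin counts were 4 and 7, beside 56.8% and 53% of all promoters. For H3K4me1 they were 7 and 5, beside 29.4% and 10.8%, and for H3K36me3 0 and 3, beside 3.27% and 3.63%. In myotubes 7 starts overlapped an H3K27ac peak and 0 an H3K27me3 peak, beside 42.3% and 1.4% of all promoters. The myoblast lists of H3K27ac and H3K27me3 go against their samples. The list deposited with the H3K27me3 sample holds H3K27ac reads at 36.4 times the genome mean and H3K27me3 reads at 0.804 times, and the other list holds H3K27me3 reads at 6.76 times and H3K27ac reads at 0.588 times. By the sample of deposit, 6 troponin starts overlapped a myoblast H3K27me3 peak and 0 an H3K27ac peak, beside 46.2% and 5.02% of all promoters, and with the lists exchanged these counts change places. No read count in the text uses the lists, other than to draw the borders of the regions, which did not use these 2 lists.

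The other genes of the thin filament give a scale for the troponins. The list holds 20 genes, among them actins, tropomyosins, tropomodulins, leiomodins, nebulin and capping proteins. In H3K4me3, 17 reached 20 reads, 6 of them were called higher (Acta1, Actc1, Lmod2, Lmod3, Neb and Nrap) and 1 lower (Tpm4), beside the background of 3.44% and 7.74%. These 6 had 1 to 7 reads in myoblasts and reached the minimum through the myotube library, so this count carries no test. The highest ratio was that of Neb, the giant ruler of the thin filament, from 1 to 161 reads, and the lowest that of Tpm4, a non-muscle tropomyosin, from 91 to 51 reads, 0.475. In H3K27ac, 17 were tested, 10 were called higher and 2 (Tpm4 and Tmod3) lower, beside 5.21% and 41.5% of all promoters tested. Of those called higher, all but Tpm1 (50 reads) and Nrap (22) had under 20 myoblast reads, so this count carries no test either. The ratios ran from 71.0 at Lmod2, an actin nucleator of muscle, to 0.406 at Tpm4. In H3K4me2, 18 were tested, 6 were called higher and 1 lower, beside 2.34% and 36.3%, from 21.2 at Neb to 0.447 at Nebl. Of these 6, all but Lmod3 (29 reads) and Nrap (35) had under 20 myoblast reads.

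In H3K4me1, 18 thin filament genes were tested, 3 (Actc1, Tpm3 and Lmod2) were called higher and 1 lower, beside 8.81% and 18.7% of all promoters tested, from 2.84 at Lmod2 to 0.472 at Nebl. In H3K36me3 at the start 4 were tested and 1 was called higher, Tpm3 at 3.06, beside 9.24% of all promoters tested, and the lowest was Lmod3 at 0.932. In H3K27me3 2 were tested, beside a background of 20.5% called lower, and 1 was called lower, Acta1, the skeletal actin, from 31 reads in myoblasts to 6 in myotubes (0.306), and the other, Tmod2, stood at 1.18. So Acta1 had more H3K27me3 reads at its start in myoblasts than any troponin gene. Over the gene body H3K36me3 was called higher at 7 of the 20, from Lmod3 (2.35) to Acta1 (8.38), and lower at 1, Cfl2, a muscle cofilin, from 92 to 10 reads, beside 7.67% and 6.58% of all gene bodies tested. Lmod2 in H3K4me1 and Tpm3 in H3K36me3 at the start each had 7 myoblast reads, and Actc1 had 12 in body H3K36me3. These calls reached the minimum only with the myotube reads. The median H3K4me3 ratio of the 17 tested was 1.45, and several of the list, such as the capping protein genes, are used in all cells.

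For the 6 members with an H3K4me3 peak, the 3 genes with the most similar values were found by Euclidean distance over the 12 log2 levels (fold plus 0.5) at the start. For Tnnt1 they were Lmod3 (1.44), Nrap (1.54) and Myog (1.62), and for Tnnt3 they were Ankrd23 (1.73), Nrap (1.96) and Tnnc2 (2.08). Tnni1 was nearest to Trim72, Tmem8c and Tnnc2 (2.25 to 2.37), and Tnni2 to Pgam2, Tnnc2 and Actc1 (1.92 to 2.33). Tnnc1 was nearest to Lmod3, Ankrd23 and Trim72 (2.31 to 2.47), and Tnnc2 to Pygm, Tnnt3 and Ip6k3 (2.06 to 2.10). The median distance of these members to all genes lay between 7.32 and 8.92. Among the members themselves, Tnnt3 and Tnnc2 were the closest pair (2.08), and Tnni3 and Tnnc1 the farthest apart (10.9).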

How the data were processed

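Each of 6 histone marks was measured by ChIP-seq in C2C12 myoblasts and in myotubes, 1 library per group. The authors aligned reads to mm9 with Mosaik and kept unique alignments, and the deposited read files hold 1 line of count 1 for each read, at 34 bp. The deposited peak files hold the score that MACS gave each peak. Settings of MACS, removal of duplicates and an input library are not given in the sources used here, and peaks were called per library.

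Reads on chromosomes 1 to 19 and X were extended to 150 bp, and the midpoints were counted as given in the report, with GENCODE M1 genes. Intervals are exact Poisson for a level and exact conditional binomial, without the added read, for a ratio. PCR copies are not independent molecules, and between 0.837% and 6.07% of the reads of a library shared position and strand with another. The 8 members, the gene lists and the markers were chosen with earlier results of these data known. Named genes are the 8 members, the genes between or next to the pairs, the thin filament genes with the highest and lowest ratio per mark, and the 3 nearest genes of each member with an H3K4me3 peak. Of the 8 members 6 had a RefSeq promoter, and the RefSeq starts of Tnni2 and Tnnt3 were not used here. Alternatives changed the window, read extension, duplicates, scaling, added reads, start, read minimum, call ratio, depth and peak lists. Of the markers of other cell types, 1 gene is not reported here. The steps were tested on simulated data. The scripts ran under Python 3.11.15, with counts handled in numpy 2.4.6 and pandas 2.3.3. Intervals came from scipy 1.17.1 and plots from matplotlib 3.10.9.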

Additional observations from a re-analysis of the deposited data

How the results depend on the processing

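Over 15 alternatives the counts of genes called higher at the start were 6 to 7 genes for H3K4me3, 5 to 8 for H3K4me2 and 5 to 7 for H3K27ac, and over 12 alternatives 6 to 7 for H3K36me3 over the body. Of 358 recomputed counts and medians 35 moved and 323 did not, and of 656 ratios of single genes 33 moved and 4 reversed. The median H3K4me2 ratio was 7.98 when scaled to promoters with an H3K4me3 peak in both states and 2.85 when scaled to 10 kb windows without a peak, beside 4.97. With these scalings all ratios of a mark shift together, those of H3K4me2 by factors of 1.61 and 0.573 and those of H3K27ac by 1.79 and 0.866. The median ratio ranged from 12.4 to 26.5 for H3K4me3, from 5.41 to 12.6 for H3K27ac and from 4.08 to 6.03 for H3K36me3 over the body.

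At the most upstream start of Tnni1 the ratios of H3K27ac (0.305), H3K36me3 (0.326) and H3K4me2 (0.460) reversed, and 1 gene was called lower in H3K27ac and 1 in H3K4me2 against 0. Thinned to the smallest library, the H3K4me1 ratio of Tnni3 reversed to 0.750. The single call of H3K4me1 higher (Tnni3) dropped to 0 with 500 bp windows, 10 kb scaling, 5 added reads, the most upstream start, a minimum of 40 reads, a call at 3 and thinned libraries. The single call of H3K4me1 lower (Tnni1) became 3 with 10 kb scaling or a call at 1.5 and 0 at the most upstream start, at the RefSeq start or with a call at 3. H3K36me3 at the start was called higher at 1 gene with 500 bp windows, a minimum of 40 reads or thinned libraries and at 2 at the most upstream start, against 4. H3K27me3 over the body was called higher at 2 genes with promoter scaling, a minimum of 10 reads, a call at 1.5 or thinned libraries, and at 0 with a call at 3, against 1. The cause was not tested, other than that a higher minimum or ratio leaves fewer calls by construction.

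For the peaks, exchanging the myoblast lists moved H3K27ac from 0 to 6 and H3K27me3 from 6 to 0. With a score of at least 100 the counts fell to 3 for the myoblast H3K27me3 list, 1 for myoblast H3K4me3 and 2 for myotube H3K4me1. Where a peak had to cover the start itself they fell to 1 for the myoblast H3K27me3 list, 1 for myoblast H3K4me2, 0 for myoblast H3K4me3 and 1 for myotube H3K4me1. The RefSeq starts, chosen after the data were seen, gave 1 for myoblast H3K4me3. No paired analysis was possible because each group has 1 library and the labels give no replicate numbers. Depth limits H3K4me3 and H3K27ac at Tnni3 and H3K27me3 at all starts, where a library held 0 to 8 reads.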
